A study of Mus musculus with 36 samples.

Results

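The 39 protein-coding Hox genes of the mouse were followed across 36 RNA-seq libraries from cultured pluripotent cells. Members were taken by name, as every protein-coding gene of the deposited table whose symbol is Hoxa, Hoxb, Hoxc or Hoxd followed by a number, which gave 39 of 49671 genes and used no measured value. HoxA holds 11 of them, HoxB 10, HoxC 9 and HoxD 9. The cells were 3 conditional mouse lines, Bod1L, Setd1a and Mll2, each as wild type (WT) and knockout (KO) in 3 media, with 2 libraries labelled as biological replicates in each of the 18 groups. Naive embryonic stem cells were kept in 2i, a medium with LIF and the inhibitors PD0325901 and CT99021. Embryonic stem cells in FCS had LIF and serum, and epiblast-like stem cells (EpiSC) had Activin A and FGF2. Knockout libraries are labelled as tamoxifen-treated and wild-type libraries are not, so that treatment and genotype cannot be told apart. Each genotype comes from 1 line, so that the p-values below reflect how far these cultures varied.

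Hox genes encode homeodomain transcription factors that set position along the body axis, and they lie in 4 clusters in which gene order follows the order of expression from head to tail. Genes with the same number in different clusters are paralogues, and low numbers act anteriorly while high numbers act posteriorly. In pluripotent cells the clusters are known as classic bivalent Polycomb targets, and Mll2 (gene Kmt2b) and Setd1a are histone H3 lysine 4 methyltransferases of the trithorax side, with Bod1L known as a partner of Setd1a. Bod1L, Setd1a and Mll2 are used below for the lines and Bod1l, Setd1a and Kmt2b for the targeted transcripts.

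In GRCm38 coordinates, the outermost members span chr6:52155590-52260880 for HoxA on the minus strand, with 11 members and 20 other annotated genes between them. HoxB spans chr11:96194316-96368256, HoxC chr15:102921103-103036852 and HoxD chr2:74668310-74765142, all 3 on the plus strand. Promoter entries from RefSeq (GRCm38.p6), each with 250 bases before and 50 bases after a start site, matched 22 of the 39 members with 24 promoters. The 4 promoters below belong to Hoxa7 and Hoxa9, among the Hox transcripts of highest wild-type mean in 2i, and to Hoxb4 and Hoxb8. The last 2 were among the HoxB genes with their highest wild-type mean in EpiSC medium. They are written 5′ to 3′ on the strand of the gene, with CG dinucleotides in capitals.
Hoxa7 promoter, chr6:52218524-52218823: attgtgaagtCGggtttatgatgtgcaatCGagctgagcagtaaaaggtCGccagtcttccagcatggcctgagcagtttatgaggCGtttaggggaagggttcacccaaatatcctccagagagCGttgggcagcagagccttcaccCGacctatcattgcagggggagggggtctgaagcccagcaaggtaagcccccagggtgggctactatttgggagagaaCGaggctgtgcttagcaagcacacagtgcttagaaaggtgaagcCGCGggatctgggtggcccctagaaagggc
Hoxa9 promoter, chr6:52227321-52227620: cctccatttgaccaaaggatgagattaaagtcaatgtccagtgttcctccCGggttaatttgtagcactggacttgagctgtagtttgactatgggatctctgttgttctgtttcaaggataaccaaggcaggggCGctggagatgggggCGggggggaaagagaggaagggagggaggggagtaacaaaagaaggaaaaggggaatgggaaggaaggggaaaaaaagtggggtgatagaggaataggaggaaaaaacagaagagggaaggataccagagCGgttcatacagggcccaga
Hoxb4 promoter, chr11:96318017-96318316: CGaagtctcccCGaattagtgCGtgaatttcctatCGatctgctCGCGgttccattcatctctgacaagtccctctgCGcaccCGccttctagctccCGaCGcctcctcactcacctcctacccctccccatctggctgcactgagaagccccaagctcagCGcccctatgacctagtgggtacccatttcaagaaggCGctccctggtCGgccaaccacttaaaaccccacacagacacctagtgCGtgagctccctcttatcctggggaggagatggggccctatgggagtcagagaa
Hoxb8 promoter, chr11:96281655-96281954: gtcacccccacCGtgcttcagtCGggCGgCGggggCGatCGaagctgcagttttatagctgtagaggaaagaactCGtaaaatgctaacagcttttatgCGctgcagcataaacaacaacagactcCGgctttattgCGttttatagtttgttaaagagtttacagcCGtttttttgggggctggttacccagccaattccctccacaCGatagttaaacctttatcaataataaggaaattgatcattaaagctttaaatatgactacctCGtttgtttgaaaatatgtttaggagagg
These windows hold 9, 4, 14 and 13 CG dinucleotides in that order. Over the 24 member promoters the median was 14.5, against 7 in 32851 promoters of the table, and 12 of them held at least 15, against 34.6% of all. The letters TTTATG, a core found in sites of Cdx and posterior Hox proteins, were searched on both strands and may overlap other motifs. They occurred in 20.8% of the member promoters and in 11.9% of all promoters. Hoxa7, Hoxb8, Hoxd4, Hoxd3 and Hoxd11 carried them.

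The clusters also encode microRNAs that share seeds across clusters, and the mature forms are shown because host transcripts of the loci are described further on. Capitals mark the seed, bases 2 to 8, in RefSeq sequences.
mmu-miR-10a-5p: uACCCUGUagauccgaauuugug
mmu-miR-10b-5p: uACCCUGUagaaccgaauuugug
mmu-miR-196a-5p: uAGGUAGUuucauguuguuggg
mmu-miR-196b-5p: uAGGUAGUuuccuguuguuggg
The first pair share the seed ACCCUGU and lie beside Hoxb4 and Hoxd4. The second pair share AGGUAGU, and miR-196 is known to cleave Hoxb8 mRNA. Mature microRNAs themselves are not captured by these poly(A)-selected libraries.

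Levels are given as CPM, gene counts relative to the library total, scaled by trimmed mean of M values, and as FPKM, CPM per kilobase of the deposited gene length, where genes are compared with each other. Library totals ran from 24.5M to 40.6M gene counts with a median of 32.6M. Naive markers summed to 2804 to 4062 CPM in 2i, 1057 to 3380 CPM in FCS and 26.7 to 666 CPM in EpiSC medium, while general pluripotency markers reached at least 1137 CPM in every library. In EpiSC medium the naive sums were 466 to 666 CPM in Setd1a, 83.8 to 112 CPM in Mll2 and 26.7 to 251 CPM in Bod1L. Mesendoderm and primitive streak markers summed there to 267 to 943 CPM in Mll2 and 14.2 to 70.6 CPM in the other lines. The part of these line differences in the Hox levels was not tested. In EpiSC medium, 15 fibroblast and mesenchyme markers summed to between 134 and 7525 CPM, against 22.1 to 77.3 CPM in 2i. In FCS they summed to 17.7 to 285 CPM, which overlapped the EpiSC range. Not all had their highest median in EpiSC medium: Pdgfrb had 21.9 CPM in 2i against 8.42 CPM there. Col5a2 had 2.87 CPM in 2i, 4.13 CPM in FCS and 1.72 CPM in EpiSC medium. All 12 EpiSC libraries and 1 Setd1a knockout library in 2i carry the later library numbers, so EpiSC medium and library number cannot be told apart. Bod1l transcript was at 33.6 to 62.2 CPM in the Bod1L knockout and 166 to 345 CPM in its wild type. Setd1a was at 37.3 to 43.8 CPM against 40.9 to 58.8 CPM and Kmt2b at 113 to 145 CPM against 89.6 to 210 CPM, n = 6 each. Which exons were deleted is not stated in the labels, and counts over a whole gene do not check a deletion of a small part of it.

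Summed over the members, Hox transcripts were most abundant in 2i. The plot of Hox levels by library shows this as higher values under 2i, fainter in the Setd1a line. Wild-type libraries in 2i held 47.6, 181 and 456 CPM over all members at the lowest, median and highest. In FCS the same sum was 3.70, 8.54 and 20.3 CPM, and in EpiSC medium it was 9.60, 39.3 and 182 CPM. The 2i and FCS libraries did not overlap, whereas EpiSC libraries overlapped both. With detection set at 10 or more counts in both libraries of a group, 20 to 33 of 39 members were detected in the 2i groups, 3 to 11 in the FCS groups and 11 to 22 in the EpiSC groups. In bulk RNA, fewer cells that transcribe a gene and less RNA per cell cannot be told apart.

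**Figure D1:**
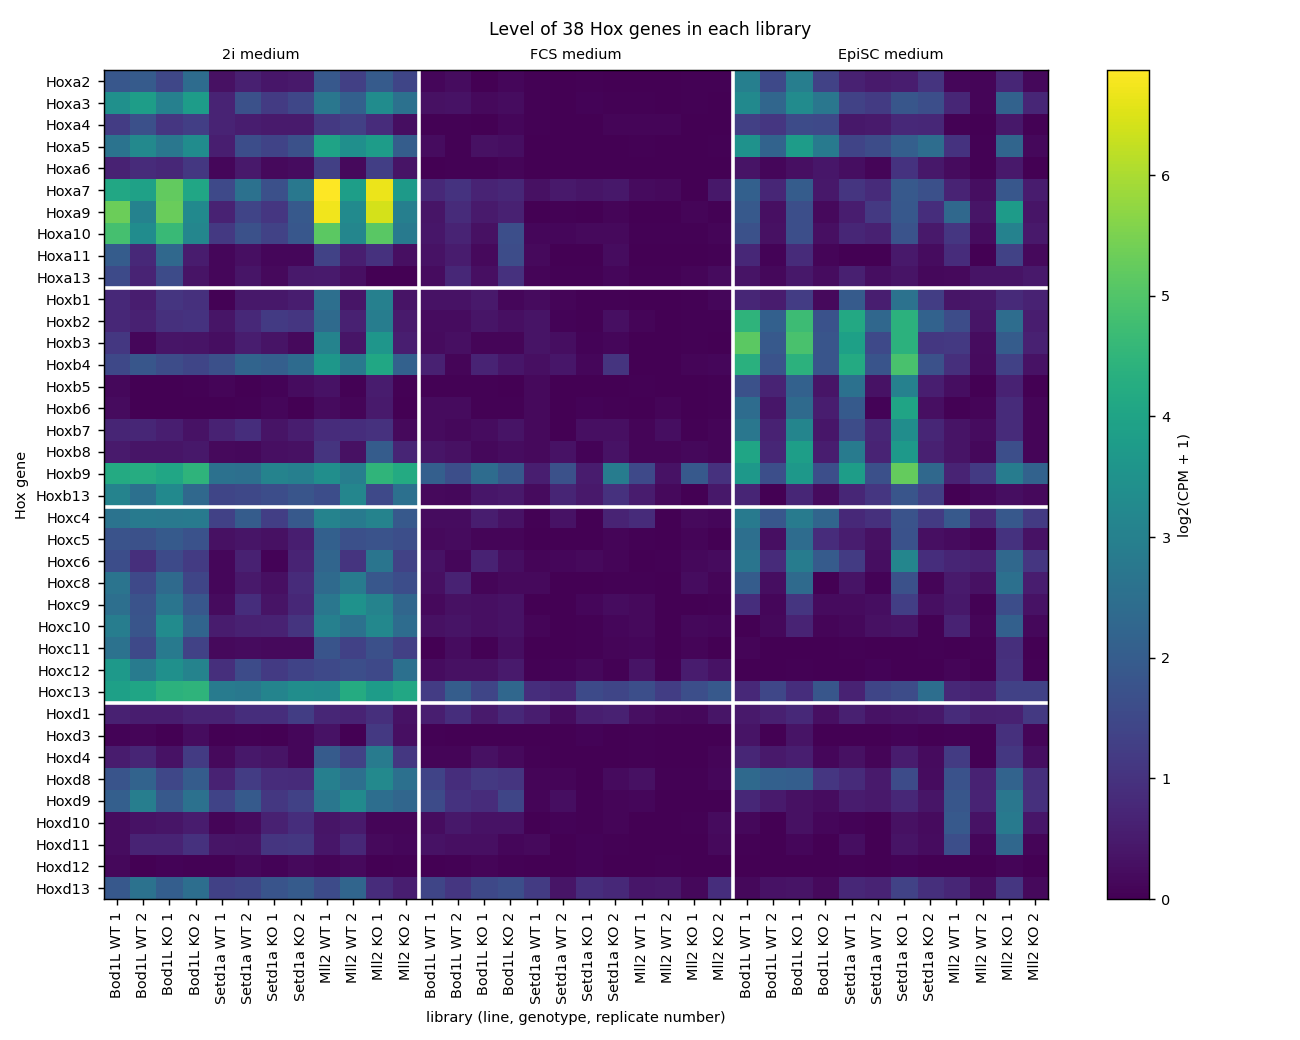
Level of 38 of the 39 Hox genes (rows, by cluster and paralogue number) in each of the 36 libraries (columns, by medium, line, genotype and replicate number), as log2(CPM + 1) by colour. The 2i libraries carry the brightest rows, and single EpiSC libraries carry bright HoxB rows.

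The highest wild-type mean fell in 2i for 29 members, among them all 11 of HoxA, in EpiSC medium for 10 and in FCS for 0. The 10 were Hoxb2 to Hoxb8, Hoxc6, Hoxd10 and Hoxd11. Hoxd10 and Hoxd11 owed this to Mll2 wild-type replicate 1, with 91 and 70 counts. The other wild-type EpiSC libraries had 0 to 9 and 0 to 7 counts. All 8 tested HoxD genes had a fitted EpiSC minus 2i difference of -0.33 or lower. The EpiSC means of Hoxc6 and Hoxd11 were only 1.06 and 1.03 times those in 2i. In the wild-type mean of 2i, Hoxa7 made up 14.0% of all Hox CPM, Hoxa9 13.6% and Hoxa10 6.93%. The first 2 shares rested largely on Mll2 wild-type replicate 1, with 4022 counts of Hoxa7 and 3621 of Hoxa9. The other wild-type 2i libraries had 61 to 650 and 19 to 1574 counts. In the wild-type mean of EpiSC medium the leading members were Hoxb3 with 13.5%, Hoxb2 with 11.9% and Hoxb4 with 10.7%. Hoxb3 had 976 counts in Bod1L wild-type replicate 1 there, against 6 to 495 in the other wild-type libraries.

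HoxA was the most abundant cluster in 2i. Its wild-type sum there was 23.0, 91.0 and 351 CPM at the lowest, median and highest, against 0.905, 2.12 and 7.25 CPM in FCS and 2.33, 11.3 and 39.8 CPM in EpiSC medium. Every 2i library lay above every FCS library, and the lowest 2i values came from the Setd1a line. HoxB reached 10.0, 25.2 and 41.7 CPM in 2i, 0.719, 3.01 and 5.13 CPM in FCS and 2.68, 13.4 and 115 CPM in EpiSC medium. HoxC summed to 9.74, 41.9 and 57.4 CPM in 2i, 1.12, 2.04 and 5.00 CPM in FCS and 2.30, 4.67 and 20.7 CPM in EpiSC medium. HoxD was the lowest cluster in 2i, with 4.83, 13.5 and 20.6 CPM, and stood at 0.556, 1.5 and 6.24 CPM in FCS and 1.77, 3.91 and 12.7 CPM in EpiSC medium. Within each wild-type 2i library HoxD lay below both HoxB and HoxC. HoxC lay above HoxB except in Setd1a wild-type replicate 1, with 9.74 CPM against 10.0 CPM.

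**Figure D2:**
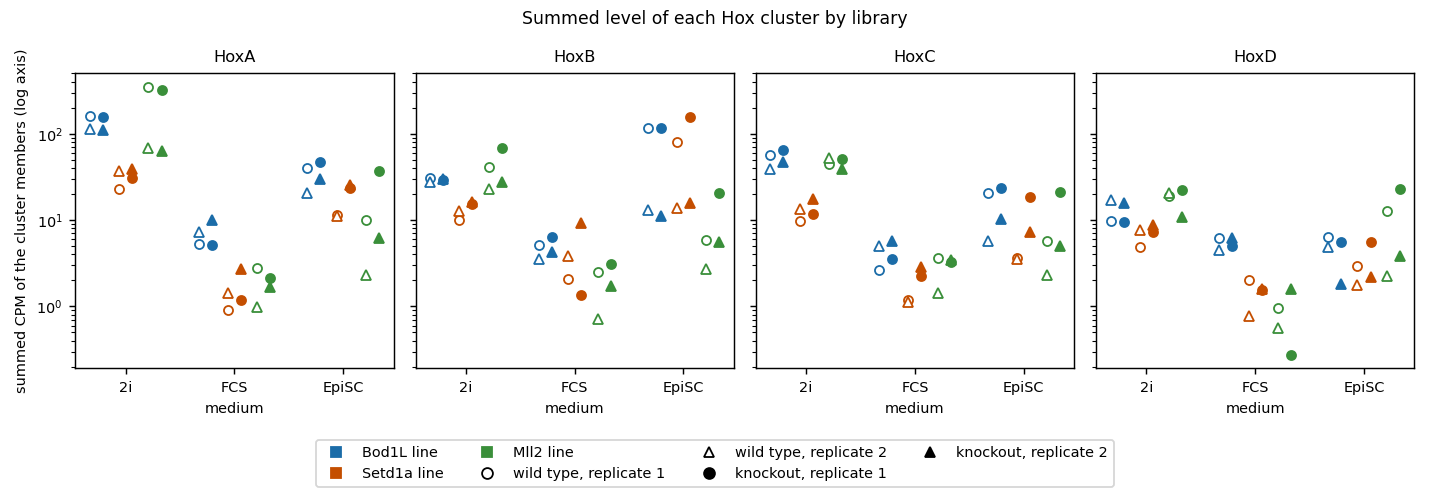
Summed CPM of the members of each cluster (log axis) in every library, by medium (x axis), with colour for the line and separate symbols for wild type and knockout. In all 4 panels the wild-type 2i points lie between 4.83 and 351 CPM and the FCS points are the lowest group, while EpiSC points spread widely.

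The members of highest wild-type mean per length were compared within HoxB, HoxC and HoxD. In HoxB, Hoxb9, a thoracic gene, led in 2i with 3.98 FPKM ± 2.39 (SD, n = 6 here and below) and in FCS with 0.667 FPKM ± 0.442, while Hoxb4, known from blood stem cells, led in EpiSC medium with 2.77 FPKM ± 3.44. In HoxC, Hoxc13, a regulator of hair keratins, led in 2i with 4.62 FPKM ± 2.06 and in FCS with 0.643 FPKM ± 0.359, and Hoxc4 led in EpiSC medium with 0.894 FPKM ± 0.787. In HoxD, Hoxd9 led in 2i with 2.24 FPKM ± 1.26, Hoxd13 in FCS with 0.343 FPKM ± 0.238 and Hoxd8 in EpiSC medium with 0.698 FPKM ± 0.564. The SD of Hoxb4 exceeded its mean, so its place at the head of HoxB rests on few libraries, and by CPM Hoxb3 stood first there. The leading genes of these 3 clusters in 2i came from paralogue groups 9 and 13.

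The first comparison set FCS against 2i in wild-type cells. With edgeR's quasi-likelihood test and Benjamini-Hochberg adjustment over 23501 genes, 33 of 38 tested members fell in FCS and 0 rose, beside 27.8% of all genes called in either direction and 14.5% called lower. Hoxd12, with at most 0.124 CPM in any library, did not pass the filter on low counts. The median fitted log2 difference of the members was -4.18, against -0.02 over all genes. From the ratio of wild-type mean CPM, which needs no fitted value for groups at 0, it was -3.97.

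All 11 HoxA genes fell, as did all 9 HoxC genes, 7 of 10 in HoxB and 6 of 8 in HoxD. All 15 tested posterior genes (paralogue groups 9 to 13), 12 of 15 central genes (4 to 8) and 6 of 8 anterior genes (1 to 3) were among them. The 5 members not called were Hoxb5, Hoxb6, Hoxb8, Hoxd1 and Hoxd3, with adjusted p from 0.0995 for Hoxd1 to 0.929 for Hoxb6.

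Hoxa9, a gene of blood progenitors and the posterior axis, had 0.58, 8.01 and 104 CPM in 2i and 0, 0.0119 and 0.79 CPM in FCS at the lowest, median and highest. It overlapped between the media only through the lowest Setd1a library, and fell by 8.42 ± 1.42 on the log2 scale (SE, adjusted p = 0.000116). Both Mll2 wild-type FCS libraries had 0 counts, so that this fitted value depends on the prior count, as it does for 13 other tested members with a wild-type line at 0 in FCS.

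Hoxa7 ranged from 1.86 to 116 CPM in 2i and from 0.131 to 1.02 CPM in FCS and fell by 5.43 ± 0.753 (adjusted p = 1.12e-05). Hoxa5, needed in lung and at the neck, ranged from 0.489 to 14.8 CPM and from 0 to 0.18 CPM. Hoxa3, a gene of the pharyngeal arches, ranged from 0.611 to 13.3 CPM and from 0 to 0.263 CPM. For these 3 genes every 2i library lay above every FCS library. Hoxa10, known from the uterus, ranged from 1.22 to 34.3 CPM in 2i against 0.0311 to 0.614 CPM in FCS. Hoxa2, a gene of the neural crest of the face, ranged from 0.244 to 2.91 against 0 to 0.175 CPM. The remaining HoxA genes were lower still, with 2i medians of 1.28 CPM for Hoxa4, 0.479 for Hoxa6, 0.61 for Hoxa11 and 0.358 for Hoxa13.

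In HoxC, Hoxc13 stood at 5.78, 11.5 and 17.9 CPM in 2i and at 0.712, 1.35 and 3.07 CPM in FCS. No FCS library reached the 2i range, and Hoxc13 fell by 2.86 ± 0.346 (adjusted p = 2.26e-06). Hoxc12, its neighbour, ranged from 0.886 to 12.2 CPM against 0.0312 to 0.28 CPM. Hoxc9, which sets thoracic identity in motor neurons, had a 2i median of 3.57 CPM and an FCS median of 0.06 CPM. Hoxc10, its lumbar counterpart, had medians of 3.68 and 0.0933 CPM. Hoxc4, Hoxc5, Hoxc6, Hoxc8 and Hoxc11 had 2i medians of 5.56, 2.21, 0.978, 3.01 and 1.69 CPM, and each had an FCS median below 0.2 CPM.

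In HoxB, Hoxb9 had 4.67, 8.10 and 18.1 CPM in 2i and 0.262, 2.01 and 3.24 CPM in FCS. Its groups did not overlap, and it fell by 2.47 ± 0.667 (adjusted p = 0.00747). Hoxb4 ranged from 1.82 to 11.4 CPM in 2i and from 0 to 0.54 CPM in FCS, and Hoxb13, a gene of the tail bud and prostate, from 1.71 to 7.83 against 0.117 to 0.641 CPM. Hoxb1, Hoxb2, Hoxb3 and Hoxb7 also fell, from 2i medians of 0.401, 0.627, 0.381 and 0.751 CPM. Hoxd9, a limb and lumbar gene, ranged from 1.59 to 8.76 CPM in 2i and from 0 to 1.95 CPM in FCS, with 1 Bod1L FCS library inside the 2i range. Hoxd13, a digit gene, ranged from 1.53 to 5.00 against 0.309 to 1.68 CPM and fell by 1.83 ± 0.472 (adjusted p = 0.00533). Hoxd4, Hoxd8, Hoxd10 and Hoxd11 fell as well, and the call for Hoxd10 was lost with a block for the replicate number (adjusted p = 0.0417 without and 0.0891 with it), which called 32 members beside 25.1% of all genes.

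Against 2i, members were called in both directions in EpiSC medium. Of 38 members, 4 rose and 15 fell with edgeR, beside 52.5% of all genes called in either direction, 25.1% called higher and 27.4% called lower, so that the share of members called was near that of all genes. The members' median log2 difference was -1.37 as fitted and -1.11 from mean CPM, against -0.07 over all genes. The 4 that rose were Hoxb2, Hoxb3, Hoxb5 and Hoxb8. Those that fell were 7 HoxA genes (among them Hoxa3, Hoxa4, Hoxa6, Hoxa7, Hoxa9 and Hoxa10), Hoxb13, 5 HoxC genes (Hoxc9 to Hoxc13), Hoxd9 and Hoxd13. With the replicate block 24 were called, beside 50.8% of all genes, with Hoxa2, Hoxa5, Hoxa11, Hoxb6, Hoxc4 and Hoxc8 added and Hoxa6 lost (-1.78 ± 0.665, adjusted p = 0.053). By position, 10 of 15 posterior genes fell and 0 rose without the block, while among the 8 anterior genes 2 rose and 2 fell.

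Hoxc12 was listed at 0 in 4 of 6 wild-type EpiSC libraries and reached at most 0.0617 CPM, against at least 0.886 CPM in 2i. The groups did not overlap, and Hoxc12 fell by 7.73 ± 0.822 (adjusted p = 1.73e-07), a value that depends on the prior count. Hoxc13 had 0.569, 0.72 and 1.77 CPM in EpiSC medium, below every 2i library, and fell by 3.43 ± 0.357 (adjusted p = 6.14e-08). Hoxa7, at 0.204, 0.744 and 3.31 CPM, overlapped the Setd1a libraries of 2i and fell by 4.02 ± 0.689 (adjusted p = 4.4e-05).

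The HoxB genes that rose were carried by replicate 1 of the Bod1L and Setd1a lines. Hoxb3 stood at 34.0 and 2.76 CPM in the 2 Bod1L wild-type EpiSC libraries, 14.1 and 1.88 CPM in Setd1a and 1.20 and 0.175 CPM in Mll2, against 1.17 and 0.0908, 0.183 and 0.453, and 7.35 and 0.308 CPM in 2i. In the Mll2 line the direction was the opposite of that in the other lines, and the pooled groups overlapped. Hoxb3 rose by 2.34 ± 0.936 over the 3 lines (adjusted p = 0.0408). Hoxb2, with Hoxb3 a gene of the hindbrain, stood at 21.0 and 3.27, 16.8 and 3.92, and 2.04 and 0.321 CPM in EpiSC medium and rose by 2.53 ± 0.784 (adjusted p = 0.00978).

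Hoxb8 stood at 15.3 and 0.655, 6.23 and 0.614, and 0.278 and 0.117 CPM in the same order, against 0.104 to 1.04 CPM in 2i, and rose by 2.55 ± 0.928 (adjusted p = 0.0246). Hoxb5 stood at 2.23 and 0.60, 4.95 and 0.269, and 0.185 and 0 CPM, against 0 to 0.259 CPM in 2i, and rose by 3.39 ± 1.16 (adjusted p = 0.018). Hoxb4, next to Hoxb5, had a fitted difference of 0.00 ± 1.64, with 19.4 and 2.40, 17.4 and 2.42, and 0.894 and 0.146 CPM. For each of these genes the second culture of a line held less RNA than the first.

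Fibroblast and mesenchyme markers were highest in some of the same libraries. The sum of the 15 markers was 7525 and 1293 CPM in the Bod1L wild-type EpiSC libraries, 1332 and 176 CPM in Setd1a and 134 and 152 CPM in Mll2. Col3a1 reached 3292 CPM and Col1a1 2273 CPM in the highest EpiSC library, whereas S100a4 was at 0 in the lowest and at most 1.52 CPM. Bod1L wild-type replicate 1 and Setd1a wild-type replicate 1 were also left out, after seeing the data, which left a single library in their groups. For the 4 genes that rose, the fitted differences were then 1.43 for Hoxb2, 0.73 for Hoxb3, 1.89 for Hoxb5 and 0.53 for Hoxb8. The libraries left out also held the highest wild-type HoxB sums in EpiSC medium, 115 and 81.0 CPM. Smaller differences thus followed from the choice of libraries, and no call is read from this fit. Bod1L wild-type replicate 2 had a marker sum close to that of Setd1a replicate 1 with a HoxB sum of 13.2 CPM against 81.0 CPM. The part of other cells in the HoxB levels was not tested.

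Within the Bod1L line alone, Hoxb2 differed by 4.27 (adjusted p = 0.0278), Hoxb3 by 4.83 (0.0396) and Hoxb8 by 4.49 (0.0372), and Hoxb5 by 4.64 (0.0681). Within the Setd1a line the same 4 differences were 4.32 (0.0537), 4.65 (0.0910), 4.87 (0.0674) and 6.19 (0.0539). Within the Mll2 line all 4 were below 0, from -2.47 for Hoxb3 to -0.66 for Hoxb5. Whether these 4 differences differ between lines was covered by the joint test described with the lines, which called none of them.

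**Figure D3:**
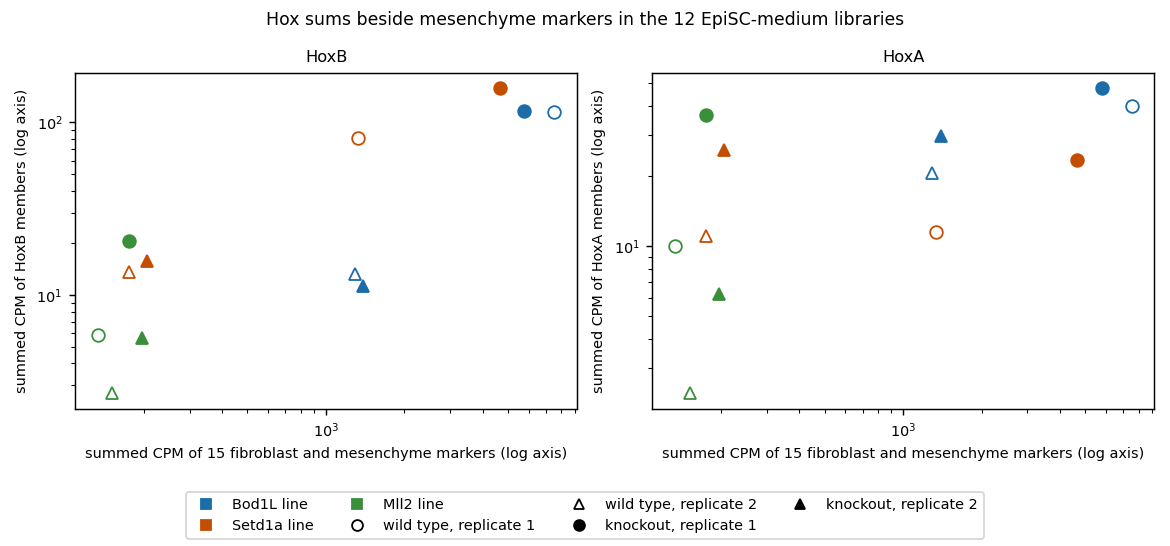
Summed CPM of the HoxB members (left) and the HoxA members (right) (y, log axis) against the summed CPM of 15 fibroblast and mesenchyme markers (x, log axis) in the 12 EpiSC-medium libraries, with colour for the line, open and filled symbols for wild type and knockout, and circles and triangles for replicates 1 and 2. The 4 highest HoxB sums, 81.0 to 157 CPM, come from libraries with marker sums of 1332 to 7525 CPM, while the Bod1L replicate 2 libraries reach 1293 and 1393 CPM of marker with HoxB sums of 13.2 and 11.3 CPM.

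EpiSC medium set against FCS gave 22 members higher and 1 lower of 38, beside 41.0% of all genes called in either direction and 20.4% called higher. The median log2 difference was 2.70 as fitted and 2.41 from mean CPM, against -0.01 over all genes. By position, 12 of 15 central genes, 6 of 8 anterior genes and 4 of 15 posterior genes rose. Hoxa5, with 0.0292, 1.86 and 10.4 CPM in EpiSC medium, rose by 6.55 ± 1.01 (adjusted p = 4.06e-05) and overlapped the FCS libraries only through 1 Mll2 culture. Hoxb3 rose by 6.40 ± 1.30 (adjusted p = 0.000524), Hoxb4 by 5.79 ± 1.08 (0.000224), Hoxb2 by 5.71 ± 0.97 (8.12e-05) and Hoxa3 by 5.05 ± 0.648 (3.39e-06). Hoxc12 was the member that fell, by 3.03 ± 1.01 (adjusted p = 0.0203). The replicate block called 22 members, beside 38.5% of all genes, and lost Hoxc9 (2.75 ± 1.02, adjusted p = 0.0587). The same 2 libraries of high mesenchyme marker were also left out, an alternative chosen after seeing the data. It left a single library in their groups, so no count is read from it. The 3 medium comparisons share their libraries, so their counts are not independent of each other.

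Among the wild-type lines, the Setd1a line had the lowest sums over all members in 2i, an order that was not tested for that medium alone. Against Bod1L and averaged over the media, 10 of 38 members were lower in Setd1a and 0 higher, beside 12.3% of all genes called in either direction and 4.66% called lower. The median log2 difference was -1.5, against 0.02 over all genes. They included Hoxa2, Hoxa3, Hoxa5, Hoxa11, Hoxc5, Hoxc8, Hoxc9, Hoxd8 and Hoxd9. Hoxa3 stood at 9.93 and 13.3 CPM in Bod1L and 0.611 and 2.26 CPM in Setd1a in 2i, without overlap, and was lower by -3.0 ± 0.566 (adjusted p = 0.0011). Hoxd8 stood at 2.42 and 3.54 against 0.58 and 1.32 CPM and was lower by -2.78 ± 0.58 (adjusted p = 0.0027).

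Hoxc5, a cervical gene, stood at 2.37 and 2.24 against 0.244 and 0.313 CPM in 2i. Hoxc8, a gene of brachial motor neurons, stood at 5.24 and 1.85 against 0.0916 and 0.383 CPM. With a block for medium and replicate number, 7 members were called, beside 7.42% of all genes: Hoxa5, Hoxc9 and Hoxd9 were among those no longer called (adjusted p = 0.0695, 0.0698 and 0.0529), and Hoxa10 was (-1.89 ± 0.502, adjusted p = 0.0467). Between 5 and 11 members were called when 1 library was left out. The count was 5 without replicate 1 of the Bod1L wild type in EpiSC medium, or of the Setd1a wild type in 2i or in EpiSC medium. It was 6 without Bod1L wild-type replicate 1 in 2i or either Setd1a wild-type FCS library.

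In the Mll2 line, Hoxa2 and Hoxa3 were lower than in Bod1L, 2 of 38 members beside 4.65% of all genes, a similar share. Hoxa2 stood at 6.76 and 1.88 CPM in Bod1L and 0.0925 and 0.0583 CPM in Mll2 in EpiSC medium, and at 2.62 and 2.91 against 2.68 and 1.48 CPM in 2i. It was lower by -3.77 ± 0.734 over the media (adjusted p = 0.0032), with both Mll2 FCS libraries at 0. The block called 2 members there beside 2.33% of all genes. Between Mll2 and Setd1a, edgeR called 0 members beside 6.39% of all genes, and 5 had an unadjusted p below 0.05. DESeq2 called 3, and the block called 0 beside 1.82%. The largest rise there was Hoxc9 (2.77 ± 1.05, adjusted p = 0.122) and the largest fall Hoxb4 (-2.95 ± 1.14, adjusted p = 0.129).

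The medium differences themselves differed between lines for 1 member, Hoxd9, beside 3.89% of all genes, and 14 members had an unadjusted p below 0.05. Hoxd9 was at 3.22 and 6.63 CPM in 2i, 1.95 and 1.02 CPM in FCS and 0.697 and 0.409 CPM in EpiSC medium in Bod1L. In Mll2 it was at 5.65 and 8.76, 0.0932 and 0, and 2.59 and 0.612 CPM, and in Setd1a at 1.59 and 2.86, 0.0624 and 0.19, and 0.426 and 0.384 CPM. FCS was thus the lowest medium in Mll2 and Setd1a and EpiSC medium the lowest in Bod1L. The joint test gave an adjusted p of 0.0365, and 0.152 with the block, where 0 members passed beside 1.12% of all genes.

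Several HoxA genes in 2i followed the replicate number of the culture more closely than its genotype. In the Mll2 line Hoxa7 stood at 116 and 13.5 CPM in wild type and 100.0 and 12.3 CPM in knockout, replicate 1 first. Hoxa9 stood at 104 and 8.82 against 85.5 and 6.85 CPM. In both genotypes replicate 1 was several times replicate 2, and knockout and wild type of a number lay close together. In Bod1L, Hoxa9 stood at 39.3 and 7.21 against 38.1 and 8.62 CPM, again following the number. In Setd1a, Hoxa9 was at 0.58 and 1.67 against 1.11 and 2.77 CPM, with the higher values in replicate 2.

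**Figure D4:**
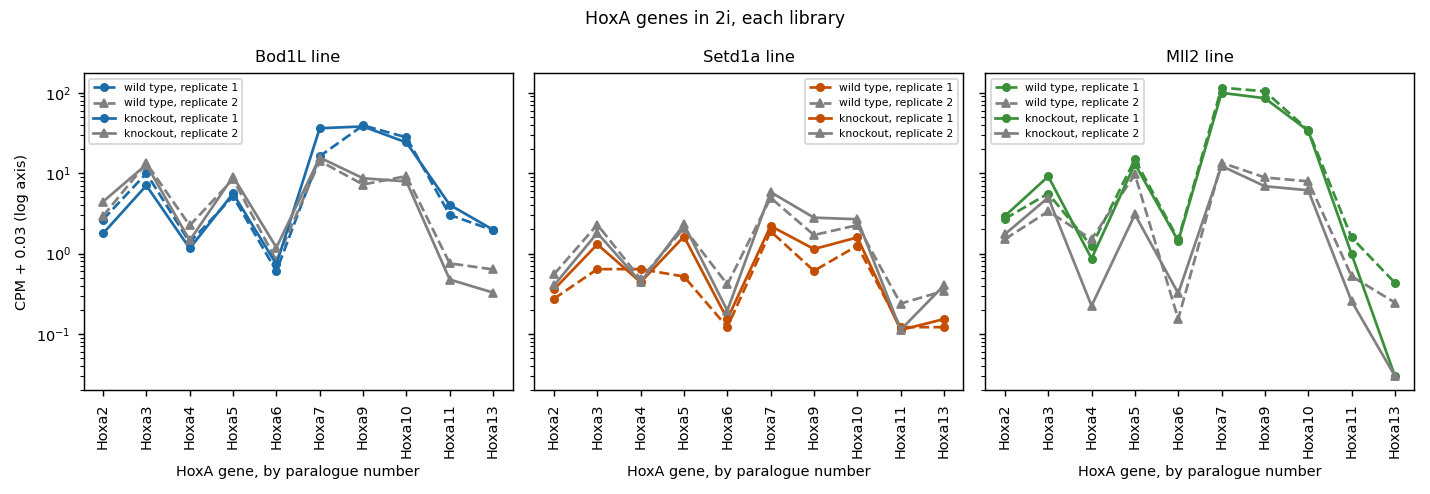
CPM + 0.03 (log axis) of 10 HoxA genes in order of paralogue number (x axis) in 2i, in 1 panel for each line, with 1 trace for each library. In the Mll2 panel the 2 replicate 1 traces rise together at Hoxa7 and Hoxa9 to between 85.5 and 116 CPM, while both replicate 2 traces stay at or below 13.5 CPM.

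Members for which both libraries of one number were at least 2 times both of the other, at 0.5 CPM or more, were counted in each line and medium. In Mll2 in 2i, 9 members were higher in replicate 1 (among them Hoxa6, Hoxa7, Hoxa9, Hoxa10, Hoxb1, Hoxb2, Hoxb3 and Hoxc6), beside 1.49% of all genes. In Bod1L in 2i there were 6 (Hoxa9, Hoxa10, Hoxa11, Hoxa13, Hoxc8 and Hoxc11), beside 3.16%. In Setd1a in EpiSC medium there were 9, Hoxb1 to Hoxb9, beside 6.50%. In Bod1L in EpiSC medium there were 17, of them 9 in HoxB, beside 4.90%. In Mll2 in EpiSC medium there were 15, of them 6 in HoxD, 4 in HoxA, 3 in HoxB and 2 in HoxC, beside 0.970%. Higher in replicate 2 were 3 members in Setd1a in 2i (Hoxa7, Hoxc6 and Hoxc9), beside 0.200%. Hoxb13 was so in Mll2 in 2i, beside 2.10%, and Hoxc13 in Bod1L in EpiSC medium, beside 4.45%. Among members higher in replicate 1, the cluster with the most differed by culture. It was HoxA in the Mll2 and Bod1L 2i cultures, HoxB in the Bod1L and Setd1a EpiSC cultures and HoxD in the Mll2 EpiSC culture. Except in Setd1a, members of other clusters stood beside them. No member count in FCS exceeded 1.

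The list of caudal and presomitic mesoderm markers holds the known Hox activators Cdx1, Cdx2 and Cdx4. The sum of its 10 genes was 108 to 447 CPM in 2i, 9.7 to 60.7 CPM in FCS and 26.3 to 143 CPM in EpiSC medium. Most of the 2i sum was Cdx1, with a median of 145 CPM in 2i, 0.536 CPM in FCS and 0.141 CPM in EpiSC medium. Other markers had their highest median elsewhere, among them Cdx4 (0.186 CPM in 2i and 0.451 CPM in FCS), Wnt8a (1.29 CPM in 2i and 31.3 CPM in EpiSC medium) and Fgf8 (0.283 and 8.11 CPM). In the Mll2 line in 2i the marker sums were 447 and 407 CPM in wild type and 435 and 204 CPM in knockout, beside HoxA sums of 351 and 68.3 CPM and of 323 and 63.9 CPM. In the Bod1L wild type they were 276 and 161 CPM, beside HoxA sums of 160 and 114 CPM. The part of caudal cells in the Hox levels was not tested.

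Knockout of Bod1L left no member past the test. Of 38 members, 0 were called in any single medium or averaged over media, by edgeR or DESeq2, and 0 had an unadjusted p below 0.05, beside 2.03% of all genes called in the average and 0.374%, 0.191% and 0.438% in 2i, FCS and EpiSC medium. With the replicate block 0 were called as well, beside 6.17% of all genes in the average and 2.8%, 1.66% and 2.19% in the 3 media. The median log2 difference of the average was 0.18, against 0.05 over all genes. Averaged over media, the largest rise was Hoxc12 (0.96 ± 0.882, adjusted p = 0.984) and the largest fall Hoxb6 (-2.16 ± 1.52, adjusted p = 0.902). The HoxA sums in 2i were 160 and 114 CPM in wild type and 156 and 109 CPM in knockout, a difference smaller than that between cultures of 1 genotype. Hoxc13, Hoxa5 and Hoxc9, picked from all members after seeing the data, were higher in knockout in 6 of 6 pairs of the same number. How many of all genes were so was not counted. Some pairs lay at a few counts, as for Hoxc9 in FCS with 4 and 8 in wild type and 6 and 8 in knockout.

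In the Setd1a knockout, averaged over the media, 1 of 38 members rose, Hoxc13, beside 8.85% of all genes called in either direction and 3.29% called higher. Its wild-type and knockout libraries stood at 6.20 and 5.78 against 7.60 and 9.38 CPM in 2i, 0.873 and 0.712 against 1.89 and 1.71 CPM in FCS, and 0.569 and 1.73 against 2.04 and 4.56 CPM in EpiSC medium. The knockout was higher without overlap in each medium and in 6 of 6 pairs. Hoxc13 rose by 1.07 ± 0.332 (adjusted p = 0.0443), and the adjusted p ran from 0.000105 with the replicate block to 0.122 without Setd1a knockout EpiSC replicate 2. The call was lost without any 1 of 10 of the 12 libraries, and it was kept without knockout replicate 1 or wild-type replicate 2 in EpiSC medium. The members' median was 0.64, against 0.07 over all genes, with 32 above 0 and 6 below. Without knockout EpiSC replicate 1 the median was 0.31, with 23 above 0 and 15 below. The 8 primitive endoderm markers summed to 242 and 209 CPM in knockout and 93.7 and 96.7 CPM in wild type in 2i. Their sums were 313 and 382 against 293 and 281 CPM in FCS, and 2262 and 602 against 688 and 433 CPM in EpiSC medium. The part of endoderm cells was not tested.

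With the block, 5 members rose in the Setd1a average, beside 26.0% of all genes. Among them were Hoxb9 (0.90 ± 0.221, adjusted p = 0.0053 against 0.322 without the block), Hoxc9 (2.45 ± 0.691, 0.0142 against 0.136), Hoxc13 and Hoxd10 (2.04 ± 0.607, 0.0192 against 0.186). Hoxd10, a lumbar gene, stood at 0.0611 and 0.139 CPM in wild type and 0.534 and 0.868 CPM in knockout in 2i. Hoxb9 stood at 4.89 and 4.67 against 7.39 and 6.74 CPM in 2i and at 13.1 and 2.23 against 36.6 and 3.95 CPM in EpiSC medium, where the difference between numbers exceeded that between genotypes. The share of members called, 5 of 38, was below that of all genes.

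In the single media, edgeR called 0 members in the Setd1a knockout, with 1 at an unadjusted p below 0.05 in 2i, 1 in FCS and 2 in EpiSC medium, and DESeq2 called 0 in each. All genes were called at 1.69%, 0.762% and 1.54%. The largest rises were Hoxd10 in 2i (2.78 ± 1.23, adjusted p = 0.335), Hoxc9 in FCS (5.09 ± 2.40, 0.732) and Hoxa11 in EpiSC medium (6.20 ± 3.12, 0.434). The largest falls were Hoxb7 (-0.96 ± 1.31, 0.817), Hoxb5 (-3.97 ± 3.39, 1) and Hoxc12 (-2.41 ± 2.50, 0.75). With the block, Hoxd10 was called in 2i (adjusted p = 0.0154, beside 12.4% of all genes), Hoxc13 in FCS (0.0338, beside 3.91%) and 5 members in EpiSC medium, beside 11.9%. Those included Hoxa7 (1.39 ± 0.392, 0.0269), Hoxb9 (1.19 ± 0.362, 0.0386), Hoxc6 (2.44 ± 0.515, 0.0048) and Hoxc13 (1.59 ± 0.304, 0.0026). Fibroblast markers summed to 4636 and 206 CPM in these knockout libraries and 1332 and 176 CPM in their wild type, and their part was not tested.

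In the Mll2 knockout, 0 members were called in the average over media, beside 0.694% of all genes, and 0 in 2i, FCS and EpiSC medium, beside 0.464%, 0% and 0%. Unadjusted p was below 0.05 for 4, 2, 1 and 7 members in that order, and DESeq2 called 0 in each. In EpiSC medium all 38 fitted differences were above 0, with a median of 1.62 against 0.00 over all genes. That direction rested on knockout replicate 1: without it 18 were above 0 and 20 below, with a median of -0.39. Leaving out 1 of the 4 libraries at a time moved Hoxa10 from -0.77 to 4.42 and Hoxa3 from 0.88 to 5.05. The largest was Hoxd3 (4.76 ± 2.16, adjusted p = 1) and the smallest Hoxd4 (0.08 ± 1.21, 1), and these 2 genes share over 50% of their exon bases with other annotated genes of the same strand. In the average the largest rise was Hoxc12 (1.95 ± 0.618, 0.23) and the largest fall Hoxa13 (-1.34 ± 0.836, 0.761).

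With the block, 5 members rose in the Mll2 average, beside 7.20% of all genes. Hoxb9 stood at 9.60 and 6.60 CPM in wild type and 21.6 and 17.2 CPM in knockout in 2i, 1.86 and 0.262 against 2.81 and 0.97 CPM in FCS, and 0.617 and 1.25 against 6.36 and 3.43 CPM in EpiSC medium. It was higher in knockout in 6 of 6 pairs and without overlap in 2i and EpiSC medium, and rose by 1.55 ± 0.229 with the block (adjusted p = 0.0002). The others included Hoxc6 (1.72 ± 0.442, 0.0213), Hoxc12 (1.93 ± 0.392, 0.0052) and Hoxc13 (0.63 ± 0.169, 0.0257).

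In 2i the block called 3 members in the Mll2 knockout, beside 6.96% of all genes. Hoxd13 stood at 1.99 and 3.73 CPM in wild type and 0.838 and 0.485 CPM in knockout, without overlap, and fell by 2.05 ± 0.58 with the block (adjusted p = 0.0374). Hoxa13, its paralogue in the digits, stood at 0.403 and 0.216 CPM in wild type and was listed at 0 in both knockout libraries, so its fold depends on the prior count (adjusted p = 0.005 with the block and 0.154 without). Hoxb9 was the third (1.28 ± 0.346, adjusted p = 0.0305). In EpiSC medium the block called 5 members, among them Hoxa3 (2.61 ± 0.438, adjusted p = 0.0039), Hoxa10 (2.29 ± 0.496, 0.019), Hoxb9 (2.35 ± 0.409, 0.0044) and Hoxc12 (3.86 ± 0.882, 0.0301), beside 2.16% of all genes. In FCS, where the block called 0 beside 0.825% of all genes, the largest rise was Hoxd10 (4.66 ± 2.26, adjusted p = 1 without the block) and the largest fall Hoxa4 (-4.12 ± 1.83, 1).

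**Figure D5:**
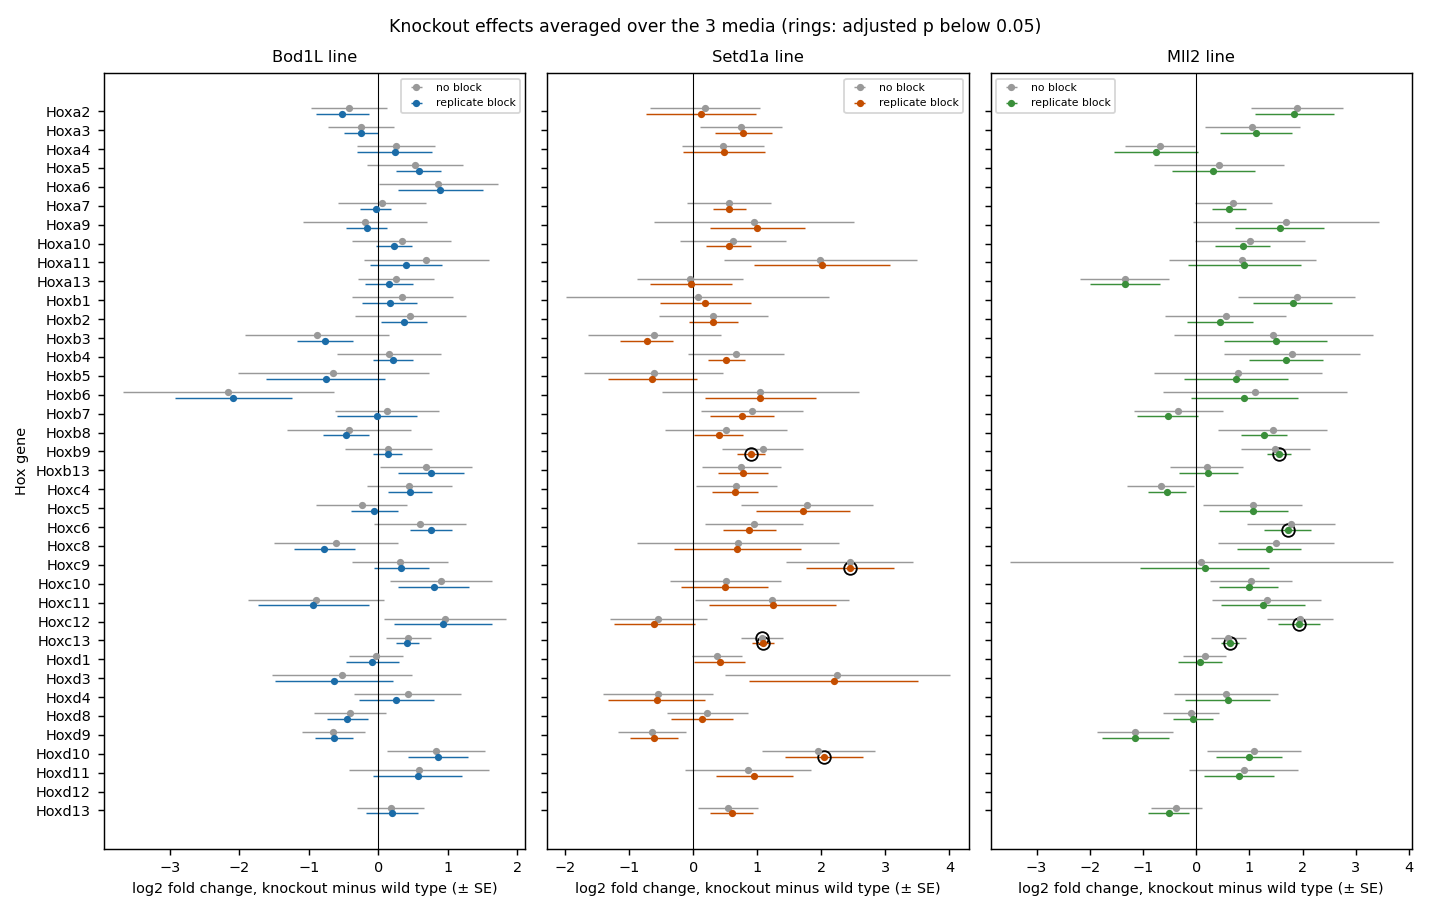
Knockout minus wild type log2 fold change (± SE) averaged over the 3 media for tested Hox genes (rows), in 1 panel for each line, in grey without and in colour with the replicate block. Rings mark an adjusted p below 0.05, and Hoxa5 and Hoxa6 in Setd1a and Hoxa6 and Hoxd3 in Mll2 are left out because their SE was 5 or more. Most points of the Setd1a and Mll2 panels lie above 0 and rings sit at Hoxc13 in both.

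Whether a knockout effect differed between media or lines was tested directly. Without the block, 0 members passed in any of the 4 tests, with 0, 0, 3 and 0 at an unadjusted p below 0.05 for Bod1L, Setd1a and Mll2 between media and for the lines, and DESeq2 was not run for these joint tests. All genes were called at 0%, 0%, 0.00426% and 2.03%. With the block, Hoxa13 differed between media in Mll2 (adjusted p = 0.0274, beside 1.61% of all genes) and Hoxb9 differed between lines (0.0128, beside 12.0%). For Hoxb9 the joint test shows that the effects were not all equal, and not which lines responded. With the block it was called in both the Setd1a and the Mll2 average. No other member was shown to differ between the knockouts.

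Other annotated genes of the clusters were followed as well. Of 18 tested genes between the outermost Hox genes, 11 fell in FCS against 2i and 0 rose, beside 27.8% of all genes called in either direction. In EpiSC medium against 2i, 3 rose and 4 fell, beside 52.5% of all genes. Gm53, a long non-coding RNA between Hoxb9 and Hoxb13, stood at 23.9, 44.9 and 51.3 CPM in wild-type 2i cells, 2.71, 6.01 and 12.5 CPM in FCS and 0.60, 6.85 and 19.9 CPM in EpiSC medium. It fell by 2.57 ± 0.292 in FCS and by 3.25 ± 0.305 in EpiSC medium, and rose by 0.89 ± 0.278 in the Setd1a knockout average (adjusted p = 0.0463). Host reads over Mir196a-1, source of the miR-196a shown above, ran at 1.66, 2.96 and 3.91 CPM in 2i and 0.13, 0.17 and 0.97 CPM in FCS, and fell by 2.95 ± 0.515. Hotairm1, a non-coding RNA of HoxA, had medians of 3.27, 0.23 and 1.41 CPM in 2i, FCS and EpiSC medium. Hoxb3os, antisense to Hoxb3, reached 25.4 CPM in the highest EpiSC library and rose by 3.10 ± 0.883 there (adjusted p = 0.00537). Counting used strand, so antisense reads were kept apart from the Hox genes.

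The proteins that work with Hox genes were followed by lists, whose counts stand beside the same 27.8% of all genes called in FCS against 2i and 52.5% in EpiSC medium against 2i. Of 9 TALE cofactors, homeodomain partners of Hox proteins, 5 rose and 1 fell in EpiSC medium against 2i, among them Meis3, which rose by 3.20 ± 0.326. In FCS against 2i, 1 rose and 3 fell, with Meis2 lower by -4.69 ± 0.578. Of 5 tested Cdx and ParaHox genes, 3 fell in FCS (Cdx1, Cdx2 and Pdx1) and the same 3 in EpiSC medium. Cdx1, an activator of trunk Hox genes, fell by 8.41 ± 0.366 in FCS and had a difference of -10.25 ± 0.421 in EpiSC medium.

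Of 30 Polycomb genes, the repressors of Hox clusters, 3 rose and 9 fell in FCS, with Phf19 up by 3.41 ± 0.341. In EpiSC medium 5 rose and 12 fell, a share near the 52.5% of all genes, among them Suz12 by -1.60 ± 0.190 and Eed by -1.24 ± 0.106. Of 15 trithorax and demethylase genes, 1 rose and 2 fell in FCS, and 5 fell in EpiSC medium, led by Ash2l at -1.35 ± 0.142. Of 12 regulators of retinoic acid and other kinds, 2 rose and 3 fell in FCS, with Rarb lower by -5.66 ± 0.746, and 4 rose and 4 fell in EpiSC medium, with Cyp26a1, which degrades retinoic acid, up by 3.90 ± 0.313. Of 11 tested genes flanking the clusters, 1 rose and 2 fell in FCS, with Skap2 beside HoxA lower by -1.68 ± 0.206.

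In the Setd1a knockout average, with 8.85% of all genes called, Pbx2 fell by 0.68 ± 0.176 (adjusted p = 0.0168) and Gmnn, a Hox and Polycomb binding protein, by 0.60 ± 0.164 (0.0232), while Cyp26a1 rose by 1.40 ± 0.293 (0.00308). In the Mll2 average, with 0.694% of all genes called, Pbx3 fell by 1.01 ± 0.217 (adjusted p = 0.0237). No member of the Cdx list was called in either. Counting shared bases limits few members: 9 of 39 share exon bases with another gene of their strand, and only Hoxd3 (62.3%) and Hoxd4 (52.3%) share over 20%.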

How the data were processed

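Gene counts were deposited by the authors as 1 table of whole-number counts for 36 libraries of poly(A)-selected, strand-specific RNA. Per the submitters' processing notes and the file headers, reads were aligned with GSNAP to GRCm38 (mm10) and counted with featureCounts 1.5.2 over Ensembl 87 genes, on strand and for primary alignments. From the counts, 92 spike-in rows (0 counts) were removed, and CPM (TMM-scaled) and FPKM were computed here with the deposited gene lengths. The quasi-likelihood test of edgeR 4.0.16 in R 4.3.3 was fitted to all 36 libraries as 18 groups (18 residual degrees of freedom, minimum count 10, 23501 genes), with Benjamini-Hochberg adjustment and a threshold of 0.05. DESeq2 1.42.0, other filters and scalings, a replicate block and leaving out each library were alternatives.

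The labels give replicate numbers and no pairing. Deviations from the group means of same-numbered wild-type and knockout libraries correlated in all 9 line and medium sets (r from 0.344 to 0.871 over 12244 genes), so the numbers were taken to pair the samples, from the data and not from a stated design. The members and gene lists were chosen with earlier results of these data known. Members past the test, the highest per length in each cluster and medium, and the largest rise and fall where none passed were named, and a few genes this rule would name are not reported here. In simulated data, 32.2% of 2-fold and 80.9% of 4-fold changes were recovered among 22229 genes for FCS against 2i, and 2.11% and 46.8% among 22178 genes for the Setd1a knockout in EpiSC medium. The changed genes were drawn at random from all tested genes, each at its mean over the 36 libraries. They were not set to the levels or spread of the Hox genes, so these rates do not give recovery for the members.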

Additional observations from a re-analysis of the deposited data

Results flagged for a closer look

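The HoxC sum of Bod1L wild-type replicate 1 in EpiSC medium stood apart from the other 5 wild-type EpiSC libraries. It was 20.7 CPM, against 5.78 CPM in the nearest and 2.30 CPM in the lowest, a gap of 0.811 of the whole range, past the limit used for 6 samples. The same library had the highest fibroblast and mesenchyme marker sum of the wild-type EpiSC libraries, 7525 CPM, and the part of that in the HoxC sum was not tested. It was 1 of 24 groups of 6 examined, and chance gives such a gap in about 1 in 20 groups.

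The medium difference of Hoxd9 differed between the wild-type lines, with an adjusted p of 0.0365 from edgeR's joint test over 3 lines and 3 media. In Bod1L its mean was lowest in EpiSC medium, and in Mll2 and Setd1a in FCS.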

How the results depend on the processing

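Leaving out 1 library at a time gave 28 to 33 members in FCS against 2i (lowest without Setd1a wild-type 2i replicate 2), 15 to 21 in EpiSC medium against 2i (lowest without the same library) and 16 to 24 in EpiSC medium against FCS (lowest without Mll2 wild-type EpiSC replicate 1). It kept 26 of 33, 12 of 19 and 13 of 23 members in every such fit. It gave 5 to 11 for Setd1a against Bod1L, 2 to 3 for Mll2 against Bod1L, 0 to 1 for the Setd1a knockout average, 0 to 3 for the medium difference between lines (3 without Mll2 wild-type 2i replicate 1) and 0 for the other comparisons. Hoxb3 and Hoxb8 in EpiSC medium against 2i were each lost without any 1 of 7 libraries.

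The replicate block called 1 member in 2i, 1 in FCS and 5 in EpiSC medium for the Setd1a knockout and 5 in its average. For the Mll2 knockout it called 3 in 2i, 5 in EpiSC medium, 5 in the average and 1 between media. It called 1 between lines and 0 for the medium difference between lines, and its other changes of single members stand beside the results. With no filter on low counts, 2 members were called in the Setd1a knockout in EpiSC medium and 4 in its average. For the Mll2 knockout the numbers were 1 in 2i, 5 in EpiSC medium, 3 in the average and 1 between media. The medium difference between lines called 28, Setd1a against Bod1L 20, Mll2 against Bod1L 16 and Mll2 against Setd1a 6. DESeq2 called 2 in the Setd1a average, 6 for Mll2 against Bod1L and 3 for Mll2 against Setd1a, and its joint tests were not run. The share of all genes called without the filter or by DESeq2 is not given here, so these counts are not read against it. RLE size factors and a minimum count of 30 moved no count by over 1.5 times. The cause of these changes was not tested.

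Alternatives chosen after seeing the data took single lines. FCS against 2i then gave 16 members in Bod1L, beside 2683 of 23501 genes, and 9 in Setd1a, beside 1459 genes. EpiSC medium against 2i gave 3 in Setd1a, beside 3033 genes. EpiSC medium against FCS gave 14 in Bod1L, 8 in Mll2 and 6 in Setd1a, beside 5090, 5265 and 664 genes in that order. The 2 wild-type libraries of high mesenchyme marker were also left out, and no count is read from that fit. Directions reversed in Mll2 alone for EpiSC medium against 2i in Hoxb2 (-1.02), Hoxb3 (-2.47), Hoxb5 (-0.66) and Hoxb8 (-1.69) and against FCS in Hoxa4 (-1.84). In Bod1L alone they reversed for Hoxd10 in FCS against 2i (0.25) and Hoxd9 in EpiSC medium against FCS (-1.43). Many members stand at a few counts per library, and 2-fold changes at 2 libraries a group were mostly not recovered in simulated data.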
